A study of Mus musculus with 2 samples.

Results

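The cells described here are microglia sorted from the mouse hypothalamus that held at least 5 UMIs (unique molecular identifiers, each standing for 1 captured RNA molecule) summed over Cd74, H2-Aa, H2-Ab1 and H2-Eb1, the genes of the MHC class II antigen-presenting machinery. They numbered 95 of 20222 kept cells, 36 of 9860 in the plasma-negative library and 59 of 10362 in its plasma-positive counterpart. A cell was kept when it held 500 or more UMIs and 300 or more genes, and when mitochondrially encoded genes took no more than 10% of its UMIs. Within each library they were set beside the cells with 0 UMIs of the 4 genes, which numbered 8985 (plasma-negative) and 9255 (plasma-positive). Both groups came from young wild-type mice, several of which were pooled, and were collected 20 hours after dye-labelled plasma protein had been injected. A fluorescence sort divided the microglia into those that carried the dye (plasma-positive) and those that did not (plasma-negative), and each group is 1 droplet library. Differences between mice, sorts and library preparations therefore cannot be told apart from differences between the groups, no test was run, and every interval is a 95% interval that covers counting error only.

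MHC class II molecules present peptides from proteins that a cell has taken up to CD4+ T cells. An alpha and a beta chain are assembled around the invariant chain, which Cd74 encodes, and the invariant chain is then degraded in the endosome so that a peptide can take its place with the help of H2-DM. In the healthy brain microglia carry little MHC class II, whereas macrophages at the brain's borders and dendritic cells carry much more. Cd74 also has a role as a receptor component for the cytokine MIF, so its transcript can be present in cells that make little of the chains it serves.

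The name MHC class II high went against the counts in the plasma-negative library. There the 36 cells held 319 UMIs of the 4 genes, of which 300 (94.0%) were Cd74, 10 were H2-Ab1, 6 were H2-Aa and 3 were H2-Eb1. In the plasma-positive library the 59 cells held 732 UMIs, of which 555 (75.8%) were Cd74, 93 were H2-Ab1, 45 were H2-Eb1 and 39 were H2-Aa. The set was thus chosen mostly by Cd74, and the cells are called Cd74-high cells here. The name is not exact for every cell. At least 5 Cd74 UMIs were counted in 35 of 36 cells in the plasma-negative library and in 49 of 59 in its counterpart. The remaining cells reached the threshold only with their H2 UMIs added. The counts of the 4 genes chose the cells and are given as a description.

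H2-Ab1 (ENSMUSG00000073421) encodes the I-A beta chain, H2-Aa (ENSMUSG00000036594) the I-A alpha chain and H2-Eb1 (ENSMUSG00000060586) the I-E beta chain. All of them lie on chromosome 17 in the GENCODE M21 annotation of GRCm38, H2-Ab1 at 34257689 to 34269419 and H2-Eb1 at 34305867 to 34316674 on the plus strand, and H2-Aa at 34282744 to 34287823 on the minus strand. H2-Eb1 overlaps the annotated antisense gene Gm20513, and whether the deposited counting used strand is not given in the sources used here. The build that was used for the counts is not given either, so these positions serve only to place the genes. MHC class II promoters carry a conserved set of boxes near the start, an X box followed by a Y box, on which the factors RFX, CREB and NF-Y assemble and recruit the coactivator CIITA. The RefSeq promoter table (GRCm38.p6) held windows for H2-Aa and H2-Eb1, and the 150 bases before the start are shown because both chains belong to 1 system with 1 coactivator. Capitals mark matches to CTGATTGG (a form of the Y box), TGACGTCA (a CREB site) and a form of the X box, the longer of the capital stretches in H2-Eb1, in which 1 base was left free. Each was searched on both strands.
H2-Aa, chr17:34287824-34287973, minus strand: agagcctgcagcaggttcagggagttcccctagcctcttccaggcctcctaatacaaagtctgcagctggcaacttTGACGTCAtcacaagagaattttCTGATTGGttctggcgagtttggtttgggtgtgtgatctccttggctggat
H2-Eb1, chr17:34305717-34305866, plus strand: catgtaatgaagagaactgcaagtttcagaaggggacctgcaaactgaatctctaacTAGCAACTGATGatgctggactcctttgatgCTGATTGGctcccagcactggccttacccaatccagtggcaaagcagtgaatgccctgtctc
The Y box form began 51 bases before the start in H2-Aa and 62 bases before it in H2-Eb1. It was present in 1039 of 32851 windows of the same length (3.16%), while its core ATTGG, which lies inside it, was present in 24.5%. The X box form began 93 bases before the start of H2-Eb1 and was found in 2 of the 32851 windows (0.00609%). TGACGTCA, which reads the same on both strands, began 74 bases before the start of H2-Aa and was present in 447 windows (1.36%). These matches describe letters, and no binding was measured.

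Within the Cd74-high cells the 4 genes were rarely seen together. Among the plasma-negative cells 29 of 36 (80.6%, interval 64.0 to 91.8) held Cd74 and no H2 UMI, 4 held at least 2 of the 3 H2 genes, and 1 held all 4 genes. Among the plasma-positive cells 25 of 59 (42.4%, interval 29.6 to 55.9) held Cd74 only, 14 held at least 2 of the 3 H2 genes, and 5 held all 4. Cd74 (ENSMUSG00000024610), which lies away from the H2 genes on chromosome 18 at 60803848 to 60812652, was present in every one of the 95 cells. Its median was 6 UMIs per cell with a highest value of 52 in the plasma-negative library, and 7 with a highest value of 44 in the plasma-positive library. The H2 UMIs were gathered in few cells: in the plasma-positive library 1 cell held 60 of 177 (33.9%) and the 4 cells with the most held 111 (62.7%). That 1 cell also had the most UMIs of the 4 genes, 98 of its 1981 UMIs (4.95%), divided into 38 Cd74, 28 H2-Ab1, 16 H2-Aa and 16 H2-Eb1. The next plasma-positive cell held 68 of 15244 UMIs (44 Cd74, 15 H2-Ab1, 3 H2-Aa and 6 H2-Eb1). The highest plasma-negative cell held 55 of 13010 UMIs, of which 52 were Cd74.

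**Figure D1:**
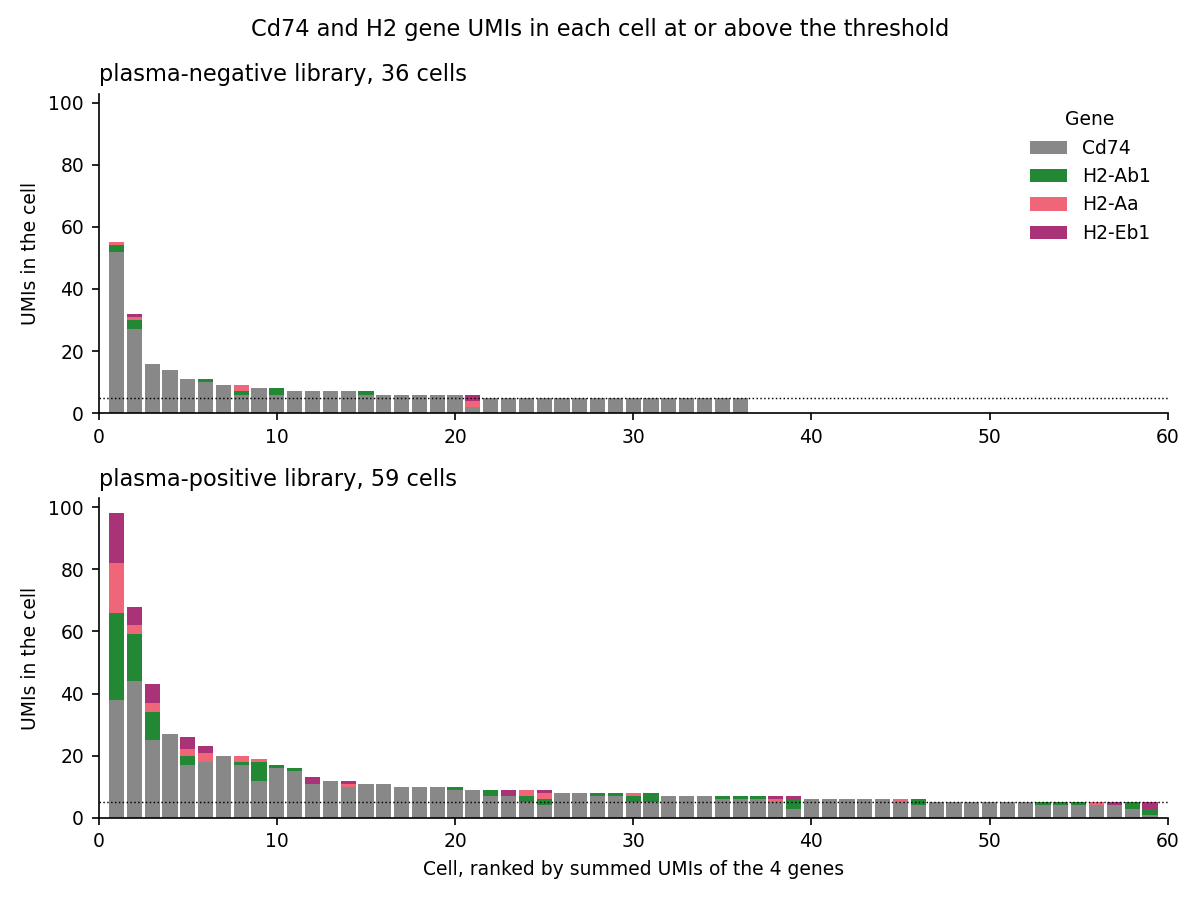
UMIs of Cd74, H2-Ab1, H2-Aa and H2-Eb1 in each Cd74-high cell (stacked bars, vertical axis in UMIs), ranked along the horizontal axis within each library, with the threshold of 5 UMIs dotted. Cd74 makes up 300 of the 319 UMIs among the 36 plasma-negative cells, while the highest plasma-positive bars hold all 4 genes.

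To see how the H2 genes followed Cd74 without the threshold on their sum, all kept cells were grouped by their Cd74 count alone. Levels are given as CPM, the UMIs of a gene per 1000000 UMIs outside the 4 genes. UMIs are counted near the 3' end and are not scaled by length, so only the same gene is compared between groups. Among plasma-positive cells H2-Aa stood at 0.397 CPM in cells with no Cd74 UMI, at 10.6 in cells with 3 to 4, at 25.5 in cells with 5 to 9 and at 259 in cells with 10 or more. H2-Eb1 stood at 0.291, 6.36, 15.3 and 309.6 CPM in the same groups, and H2-Ab1 at 7.94, 31.8, 76.5 and 536 CPM. Of the cells with 10 or more Cd74 UMIs, 8 of 19 held an H2-Ab1 UMI. The cell with 98 UMIs of the 4 genes, which also held 5 border macrophage markers, supplied 28 of the 64 H2-Ab1, 16 of the 31 H2-Aa and 16 of the 37 H2-Eb1 UMIs of those 19 cells. Without it, a check added after the data had been seen, H2-Ab1 stood at 306 CPM (214 to 424), H2-Aa at 128 (71.4 to 210.3) and H2-Eb1 at 179 (111 to 273) in the other 18. The plasma-negative library had only 6 cells with 10 or more Cd74 UMIs, in which H2-Ab1 stood at 106 CPM (interval 38.8 to 230.0), H2-Aa at 35.2 (4.27 to 127) and H2-Eb1 at 17.6 (0.446 to 98.1). Cells without Cd74 differed among the H2 genes. Of the cells that held no Cd74, 276 of 9266 in the plasma-negative library and 284 of 9563 in the other held H2-Ab1, whereas H2-Aa was seen in 3 and 14 of them and H2-Eb1 in 4 and 11. For H2-Ab1 the low level without Cd74 was close in both libraries, 9.43 CPM (8.39 to 10.6) and 7.94 CPM (7.07 to 8.89).

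**Figure D2:**
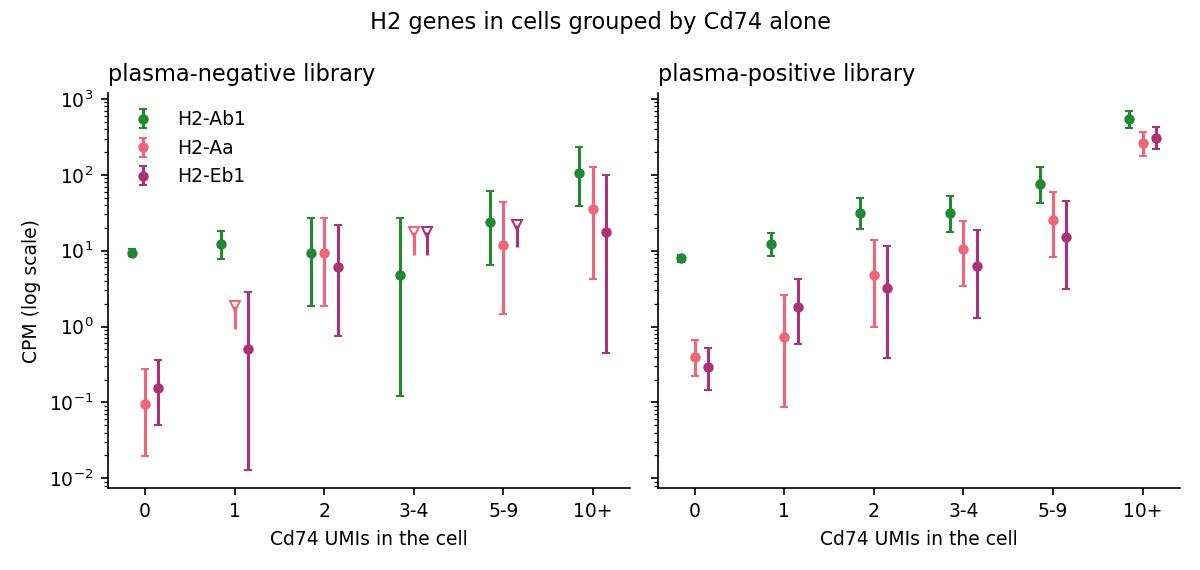
CPM of H2-Ab1, H2-Aa and H2-Eb1 (log axis) in kept cells grouped by their Cd74 UMIs (horizontal axis), in each library. Bars are exact Poisson intervals, and open triangles stand at the upper bound where 0 UMIs were counted; in the plasma-positive library H2-Aa runs from 0.397 CPM at 0 Cd74 UMIs to 259 CPM at 10 or more (128 CPM without 1 cell with border macrophage markers).

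The counts ran on through the threshold. Just outside it, 16 plasma-negative and 34 plasma-positive cells held 4 UMIs of the 4 genes, and just inside it 15 and 13 cells held 5. The cells with 4 held 63 Cd74 UMIs of 64 in the plasma-negative library and 121 of 136 in the plasma-positive library, and those with 5 held 75 of 75 and 54 of 65. For the plasma-positive library Apoe stood at 13405 CPM in the cells with 4 UMIs and at 10875 in those with 5, and P2ry12 at 1787 and 964 CPM. For the plasma-negative library Apoe stood at 675 and 428 CPM and P2ry12 at 2246 and 2625.

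The share of Cd74-high cells was 0.365% (exact binomial interval 0.256 to 0.505) in the plasma-negative library and 0.569% (0.434 to 0.734) in the plasma-positive one. The ratio of these shares was 1.56 with an interval of 1.01 to 2.43. The Cd74-high cells were deeper than those with 0 UMIs of the 4 genes, with medians of 4266.5 against 3226.0 UMIs in the plasma-negative library and 4992.0 against 3678.0 in the plasma-positive library. Their median share of mitochondrial UMIs was 1.42% against 1.08% and 1.92% against 1.26%. Of the 18 genes named further on as 2-fold higher in both libraries, 18 were still so among cells with at least 1000 UMIs, 17 among cells with at most 5% mitochondrial UMIs, and 7 among cells of 3000 to 6000 UMIs. After each cell had been thinned to 2000 UMIs, which left out 1611 and 1253 shallower cells, at least 5 UMIs remained in 10 of 8249 (0.121%, 0.0581 to 0.223) and 17 of 9109 (0.187%, 0.109 to 0.299) of them. At 3 UMIs the thinned shares were 0.461% (0.326 to 0.632) and 0.538% (0.398 to 0.711). The thinned intervals overlapped at both thresholds, and no interval of the ratio of the thinned shares was computed. Overlap alone does not settle whether the shares differed between the sorts among the thinned cells. At 5 UMIs the unthinned intervals overlapped as well, and thinning left only 10 and 17 cells. At 3 UMIs the unthinned shares were 0.892% (0.716 to 1.10) and 1.49% (1.26 to 1.74), with intervals that did not overlap. Whether the difference at the rule's own threshold depended on depth was not tested.

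The cells carried microglia transcripts. All 36 plasma-negative cells and 58 of 59 plasma-positive cells held at least 4 of 11 microglia markers, with medians of 11 and 10 markers per cell. The exception was the plasma-positive cell with 98 UMIs of the 4 genes, which held 3. Summed over the cells, all 11 markers were lower than in cells with 0 UMIs in both libraries, with a summed ratio of 0.874 (0.852 to 0.896) and a median log2 ratio of -0.20 in the plasma-negative library, and 0.640 (0.625 to 0.655) and -0.80 in the plasma-positive library. In the plasma-negative library the intervals of Tmem119, Sall1 and Siglech reached 0. Over all 3468 genes compared the median log2 ratio was -0.04 and -0.26, and 1882 and 2362 of them were lower. P2ry12, the ADP receptor that guides microglial processes, stood at 1225 against 2727 CPM in the plasma-positive library (log2 ratio -1.15, interval -1.29 to -1.02) and at 2279.7 against 2861 CPM in the plasma-negative library (-0.33, -0.46 to -0.20). Cx3cr1, the fractalkine receptor, stood at 3338 against 5805 CPM and at 5899 against 6567 CPM, plasma-positive values first.

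Border macrophage genes were seen in few Cd74-high cells. No plasma-negative cell of the 36 held a UMI of Mrc1 (the mannose receptor), Pf4 (the chemokine platelet factor 4) or Ms4a7, which by the limit of 3 counts allows a share of up to 8.33%, against 82 of 8985 cells with 0 UMIs of the 4 genes (0.913%). Of the plasma-positive cells 4 of 59 did (6.78%, 1.88 to 16.5), against 119 of 9255 (1.29%). Mrc1 was seen in 1 of them (1.69% of the 59, against 1.20% of the cells with 0 UMIs). Pf4 was seen in 3 (5.08%, 1.06 to 14.1, against 0.0648%) and Ms4a7 in 2 (3.39%, 0.413 to 11.7, against 0.0540%). At least 2 of the 3 genes were held by 2 cells (3.39%, against 0.0324%). After thinning to 2000 UMIs the counts were 0 of 35 and 1 of 58 (1.72%, 0.0436 to 9.24), against 0.620% and 0.745% of the cells with 0 UMIs. The shares could not be separated among the thinned cells. Thinning left out 1 plasma-positive Cd74-high cell, the one with 98 UMIs of the 4 genes, which held only 1981 UMIs. Its loss lowered the count apart from any matching of depth. The plasma-positive cell with 98 UMIs of the 4 genes held 9 Mrc1 UMIs and 1 Pf4 UMI and 5 of 11 border macrophage markers. The other 3 held 9, 10 and 11 microglia markers and 434, 310 and 411 Apoe UMIs. Of the 11 border macrophage markers 10 were at 0 in the plasma-negative Cd74-high cells, and the list summed to 22.2 CPM there and to 67.3 CPM in the plasma-positive ones, against 11.9 and 15.8 CPM in cells with 0 UMIs. The part of these cells in the results was not tested beyond removing them: without cells that held Mrc1, Pf4 or Ms4a7, all 18 genes named further on as 2-fold higher in both libraries were still so. No Cd74-high cell of either library held 4 markers of the dendritic, monocyte, B cell, T or NK cell, neutrophil or endothelial lists. T or NK cell and neutrophil markers were at 0 in all of them. Of 10 dendritic markers 9 and 8 were at 0 (plasma-negative count first), among them Flt3, Zbtb46, Xcr1 and Clec9a, and of 8 B cell markers 6 and 6, among them Cd79a and Ms4a1. The dendritic list summed to 57.7 and 56.5 CPM against 60.3 and 62.0 CPM in cells with 0 UMIs, and the B cell list to 75.4 and 53.8 against 60.9 and 61.0 CPM. The 8 monocyte markers, of which 6 and 5 were at 0, summed to 8.87 and 37.7 CPM against 8.25 and 11.9 CPM, and 12 of the 14 plasma-positive UMIs were Ms4a4c. Of 4 endothelial markers 3 and 2 were at 0, and the list summed to 26.6 and 16.2 CPM against 22.5 and 20.0 CPM. Batf3 and Cd79b were seen, at 57.7 and 48.8 CPM in the plasma-negative and 51.2 and 40.4 CPM in the plasma-positive Cd74-high cells, but they stood at 56.4 and 47.7 CPM and at 58.7 and 48.4 CPM in the cells with 0 UMIs.

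No other gene of the MHC class II pathway that passed the minimum of 10 CPM was 2-fold higher or lower in both libraries. Of 10 loading and processing genes in the files 9 passed the minimum of 10 CPM, and none met that size, beside 0.877% higher and 1.79% lower among all 8324 genes at that minimum. Ctss, the cathepsin that trims the invariant chain, stood at 8631 against 7548 CPM in the plasma-negative library (log2 ratio 0.19, 0.13 to 0.26) and at 10858 against 8431 CPM in the plasma-positive library (0.37, 0.32 to 0.41). H2-DMa, a chain of the peptide-loading H2-DM, stood at 395 against 262 CPM (0.59, 0.28 to 0.89) and at 312 against 278 CPM (0.17, -0.11 to 0.43). H2-DMb1, its partner, had log2 ratios of 0.37 and 0.12 with intervals that reached 0. Ctsl, Lgmn and Sppl2a, further proteases of the endosome, had log2 ratios between -0.31 and 0.04. H2-Oa and H2-Ob, the chains that restrain H2-DM, had log2 ratios of -0.06 and 0.13 in the plasma-negative and -0.37 and -0.04 in the plasma-positive library. H2-DMb2 had 3 and 4 UMIs in the Cd74-high cells, and H2-Eb2 had 0 UMIs in every group.

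Ciita, the coactivator named above, was counted 0 times in the Cd74-high cells of both libraries. A count of 0 allows up to 13.3 CPM in the plasma-negative and 8.08 CPM in the plasma-positive cells, and in the cells with 0 UMIs of the 4 genes Ciita had 0 and 4 UMIs. The 8 other regulators passed the minimum of 10 CPM and none was 2-fold higher or lower in both libraries. Together they stood at a ratio of 0.790 (0.639 to 0.966) and 0.682 (0.568 to 0.811). March1, the ubiquitin ligase that removes MHC class II from the surface, had the most UMIs of them, and stood at 191 against 255 CPM (log2 ratio -0.42, -0.89 to 0.01) in the plasma-negative and at 132 against 239 CPM (-0.86, -1.30 to -0.46) in the plasma-positive library. The RFX genes Rfx5, Rfxap and Rfxank had 2 to 14 UMIs each. For Nfya, Nfyb, Nfyc and Creb1 every interval reached 0. Among the 6 costimulatory genes, Cd86 had the most UMIs and stood at 208 against 237 CPM and 213 against 231 CPM (log2 ratios -0.19 and -0.12, intervals reaching 0). Icosl and Cd80 also had intervals that reached 0 in both libraries. Cd40 had 4 UMIs in the plasma-positive cells (10.8 against 0.441 CPM, interval of the log2 ratio 2.57 to 6.24) and 0 in the plasma-negative cells. Cd274, the gene of PD-L1, had 4 and 5 UMIs, and Pdcd1lg2 had 0 and 1.

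Across all genes at 50 CPM or more in the Cd74-high cells or the cells with 0 UMIs of each library, 18 of 3468 (0.519%) were at least 2-fold higher in both libraries and 9 (0.260%) at least 2-fold lower. Within 1 library the shares were larger: 62 of 3880 genes (1.60%) higher and 71 (1.83%) lower in the plasma-negative library, and 106 of 3650 (2.90%) and 193 (5.29%) in the plasma-positive library. The 18 higher genes were Mmp12, Lgals3, Lpl, Ccl3, Cd72, Fxyd5, Apoe, Ccl4, Capg, Bcl2a1d, Cox6a2, Cstb, Atf3, Cxcl16, Gpr65, Ly9, Lyz2 and Fcgr4. Of these, only Apoe, Cstb, Cxcl16 and Lyz2 stood at 50 CPM or more in the cells with 0 UMIs. The others entered through the Cd74-high cells alone, so they could only be counted as higher. Which genes these were depended on the rule for the cells. At 10 or more UMIs of the 4 genes 19 genes were higher in both libraries, and only Apoe of the 18 was among them. With at least 3 UMIs of the H2 genes, Cd74 not counted, 20 were higher and Apoe, Fxyd5 and Lyz2 were among them. Of the 18, Apoe, Lpl, Lgals3 and Lyz2 belong to the lipid-handling and phagocytic set known from disease-associated microglia. Of 13 genes of that list that passed the minimum of 10 CPM, 6 (these and Axl and Cst7) were at least 2-fold higher in both libraries, beside 0.877% of all 8324 genes at that minimum. Lgals3, Axl and Cst7 stood below 10 CPM in the cells with 0 UMIs of both libraries. They entered through the Cd74-high cells alone and could only be counted as higher. Plasma-negative Axl and Cst7 rested on 4 and 8 UMIs. The count and the median of the list are therefore given as a description. The median log2 ratio of the list was 0.98 in the plasma-negative and 1.63 in the plasma-positive library, against -0.05 and -0.30 over all genes at that minimum.

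**Figure D3:**
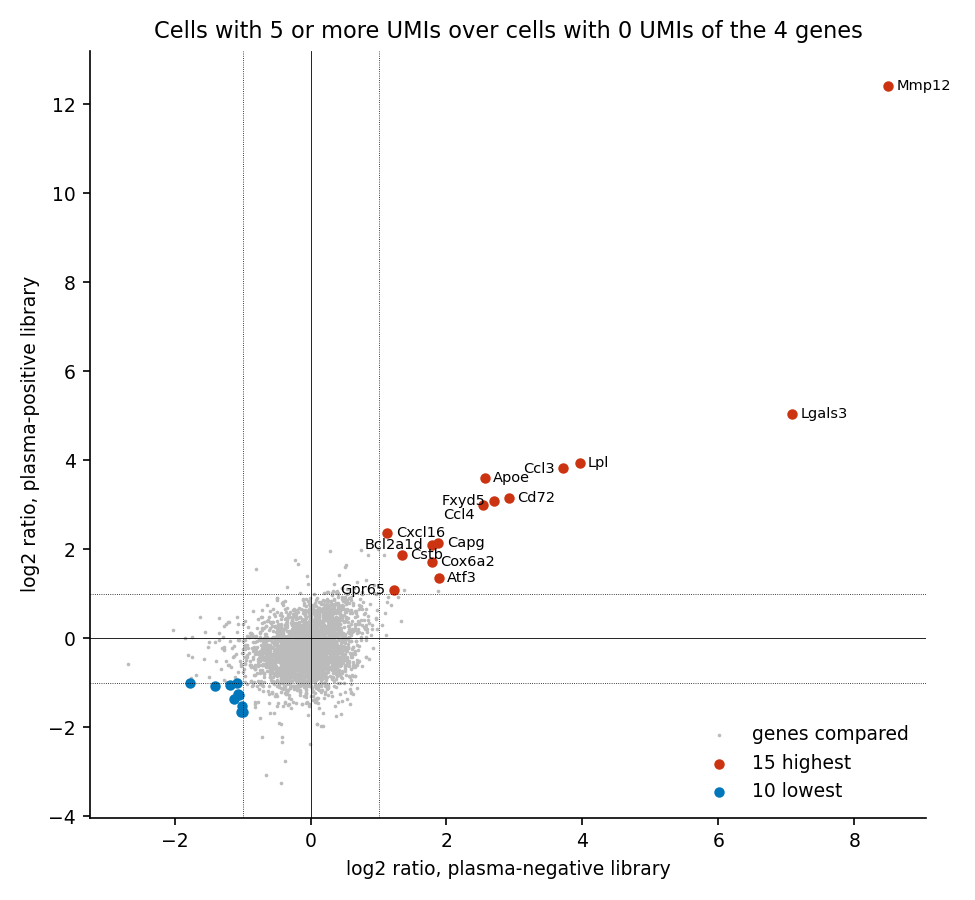
log2 ratio of CPM between Cd74-high cells and cells with 0 UMIs of the 4 genes, plasma-negative library on the horizontal and plasma-positive library on the vertical axis, for the 3468 genes compared. The 15 highest and 10 lowest genes by the ratio nearer to 0 are marked, and dotted lines stand at 2-fold. Mmp12 is farthest out, at 8.50 and 12.42, with 16 of 16 and 55 of 56 UMIs in 1 cell of each library.

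Doublets were not removed for these values; without the highest doublet scores, which took 3 and 2 of the Cd74-high cells, 23 genes were 2-fold higher in both libraries and all 18 were among them. Mmp12 had only 6 and 1 UMIs in the cells with 0 UMIs of the 4 genes, so that its log2 ratios had intervals of 7.07 to 10.14 and 9.88 to 17.75.

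Apoe, the lipid carrier apolipoprotein, was the most abundant of the 18. It stood at 834 against 141 CPM in the plasma-negative library (log2 ratio 2.56, 2.34 to 2.77) and at 9305 against 760.0 CPM in the plasma-positive library (3.61, 3.56 to 3.66). Single plasma-negative Cd74-high cells held 0 to 71 Apoe UMIs with a median of 0.5, and plasma-positive ones 0 to 469 with a median of 8. The groups of cells overlapped, since cells with 0 UMIs of the 4 genes reached 120 and 420. Without the cell with the most Apoe UMIs the log2 ratios were 1.92 and 3.44. Lyz2, which encodes lysozyme, stood at 408 against 193 CPM (1.08, 0.76 to 1.37) and at 977 against 267 CPM (1.87, 1.72 to 2.03), with a UMI in 27 of 36 and 48 of 59 cells. Cxcl16, a membrane-bound chemokine and scavenger receptor, stood at 115 against 52.6 CPM (1.13, 0.51 to 1.69) and 299 against 58.3 CPM (2.36, 2.07 to 2.63). A Cxcl16 UMI was present in 38 of 59 plasma-positive cells but in 11 of 36 plasma-negative cells. Fxyd5, a regulator of the sodium pump, was spread over 10 and 19 cells and had log2 ratios of 2.70 (1.95 to 3.36) and 3.09 (2.68 to 3.47).

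For other genes of the 18 a few cells supplied the counts. One plasma-negative cell with 20680 UMIs, 7 Cd74 UMIs and no H2 UMI held 81 of 94 Lpl UMIs (lipoprotein lipase), 38 of 45 Lgals3 UMIs (galectin-3), all 16 Mmp12 UMIs (macrophage elastase), 41 of 42 Ccl3 UMIs, all 26 Ccl4 UMIs and 13 of 19 Cd72 UMIs. It also held 20 of 46 Cstb, 12 of 21 Cox6a2, 11 of 19 Atf3 and 9 of 20 Capg UMIs. One plasma-positive cell with 14090 UMIs, 12 Cd74 UMIs and no H2 UMI held 55 of 56 Mmp12, 41 of 140 Lpl, 26 of 73 Cd72, 25 of 59 Fxyd5 and 12 of 40 Lgals3 UMIs. Both held many microglia markers (11 and 10 of 11). Without these cells, a check added after the data had been seen, 6 genes were at least 2-fold higher in both libraries: Apoe, Capg, Fcgr4, Fxyd5, Lpl and Lyz2. When each gene was instead compared without the cell that held most of its UMIs, 6 of the 18 also stayed at 2-fold, namely Lgals3, Lpl, Cd72, Fxyd5, Apoe and Capg. Lpl then had log2 ratios of 1.25 and 3.49, Cd72, a B cell co-receptor also found on macrophages, 1.39 and 2.57, and Capg, an actin-capping protein, 1.15 and 1.64. Ccl3, which encodes a chemokine, had a log2 ratio of -1.54 in the plasma-negative library on its single remaining UMI. At least 1 UMI of Lpl, Lgals3 or Mmp12 was present in 8 of 36 plasma-negative cells (22.2%, 10.1 to 39.2) against 6.48% of the cells with 0 UMIs, and in 22 of 59 plasma-positive cells (37.3%, 25 to 50.9) against 7.07%.

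The level of Apoe did not follow the Cd74 and H2 counts step by step. In the plasma-positive library it stood at 760.0 CPM in cells with 0 UMIs of the 4 genes, 2664 in cells with 1 to 2, 10593 with 3 to 4, 10284 with 5 to 9 and 7470.0 with 10 or more. In the plasma-negative library the values were 141, 295, 1553, 954 and 476 CPM. In both libraries the highest value lay at 3 to 4 UMIs, below the threshold, although in the plasma-positive library its interval of 10333 to 10858 overlapped that at 5 to 9 UMIs (9884 to 10697). P2ry12 was lower at each step in the plasma-positive library, at 2727, 2442, 1715, 1458 and 789 CPM. In the plasma-negative library it stood at 2861, 2677, 2407, 2205 and 2501 CPM, so the cells with 10 or more UMIs were not the lowest there, and their interval of 2107 to 2948 reached the value at 0 UMIs.

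**Figure D4:**
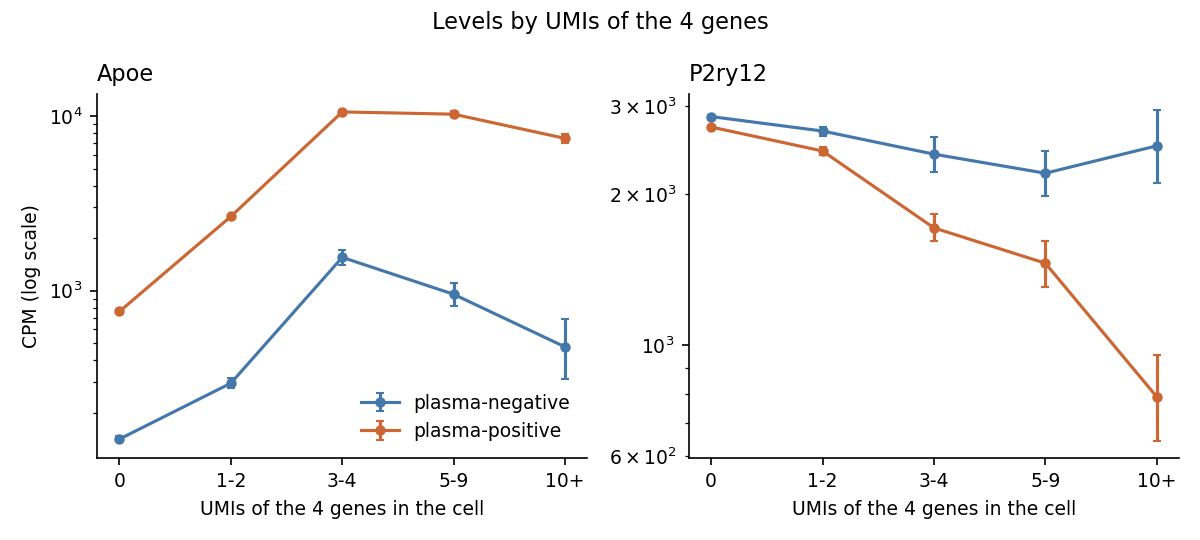
CPM (log axes) of Apoe and P2ry12 in kept cells grouped by UMIs of the 4 genes, with exact Poisson intervals. Apoe is highest at 3 to 4 UMIs in both libraries (1553 CPM plasma-negative, 10593 CPM plasma-positive), and P2ry12 reaches 789 CPM at 10 or more UMIs in the plasma-positive library but 2501 CPM in the plasma-negative library.

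Summed interferon-responsive genes were higher in the plasma-positive Cd74-high cells, and the plasma-negative intervals reached even. Interferons of type I induce antiviral genes such as Ifit3 and Isg15, and interferon gamma is the classical inducer of MHC class II through Ciita. Over 18 type I interferon genes the Cd74-high cells stood at 3002 against 575 CPM in the plasma-positive library (ratio 5.22, 4.91 to 5.55) and at 288 against 339.9 CPM in the plasma-negative library (0.848, 0.654 to 1.08). The intervals of these ratios do not overlap. Bst2, a membrane tether of viruses, had the most UMIs of the list in both and stood at 703 against 208 CPM and 146 against 172 CPM. Ifi27l2a stood at 595 against 68.6 CPM in the plasma-positive library and at 22.2 against 17.6 CPM in the plasma-negative library. Ifitm3, which encodes an antiviral membrane protein, was higher in both, at 571 against 42.2 CPM (log2 ratio 3.76, 3.54 to 3.96) and 39.9 against 12.2 CPM (1.71, 0.57 to 2.65), the latter on 9 UMIs. Stat2 and Ifit1 had log2 intervals that reached 0 in both libraries. Of the 18 genes, 9 were at 0 in the plasma-negative Cd74-high cells and none in the plasma-positive ones. Over 12 interferon gamma targets the ratio was 1.94 (1.68 to 2.22) in the plasma-positive and 0.744 (0.536 to 1.01) in the plasma-negative library. The plasma-positive sum and the median went opposite ways: of the 6 targets compared 2 were higher and 4 lower, with a median log2 ratio of -0.32. With the cells chosen by the 4 genes at 0.1% of their UMIs the plasma-positive ratio was 0.784 (0.598 to 1.01). In the plasma-positive cells Cxcl10, a chemokine for T cells, led that list with 54 UMIs, and Cxcl9 had 29, Gbp2 27 and Iigp1 21. One cell held 50 of the Cxcl10 UMIs, and without it the log2 ratio of Cxcl10 was 0.04. Cxcl9 was seen in 2 cells, 1 of which held 20 of its UMIs. Gbp7, a guanylate-binding protein gene, stood at 51.2 against 103 CPM there (log2 ratio -1.02, -1.75 to -0.37) and at 53.2 against 89.0 CPM in the plasma-negative library (-0.74, -1.70 to 0.07). Among the receptors and signal carriers of interferon gamma, Ifngr1 stood at 625 against 965 CPM in the plasma-positive and at 954 against 1013 CPM in the plasma-negative library.

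Single cells combined the Apoe and interferon transcripts in every way. In the plasma-positive library 27 of 59 Cd74-high cells held at least 3 UMIs of both Apoe and the type I list, 14 of Apoe only, 12 of the list only, and 6 of neither. Among plasma-positive cells with 0 UMIs of the 4 genes 4.87% held both and 73.7% neither. In the plasma-negative library 3 of 36 Cd74-high cells held both, 10 Apoe only, 6 the list only, and 17 neither, against 0.935% with both and 85.8% with neither. Thinned to 2000 UMIs per cell, 17 of 58 plasma-positive Cd74-high cells held both (29.3%, 18.1 to 42.7) against 2.11% of the cells with 0 UMIs. No plasma-negative cell of 35 did after thinning, while 7 held Apoe (20.0%, 8.44 to 36.9) against 2.92%. Of the 34 plasma-positive cells with an H2 UMI, 24 held at least 3 Apoe UMIs and 24 at least 3 UMIs of the type I list. Of the 7 plasma-negative cells with an H2 UMI, 5 held at least 3 Apoe UMIs and 2 at least 3 of the list.

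**Figure D5:**
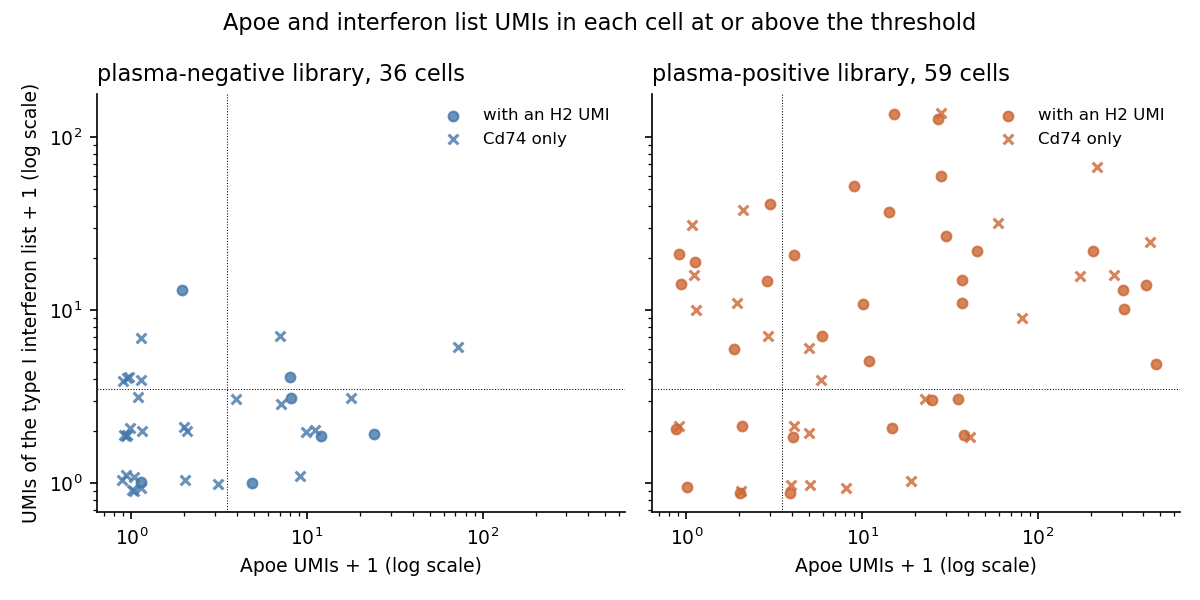
Apoe UMIs (horizontal) and UMIs of the 18 type I interferon genes (vertical) in each Cd74-high cell, both plus 1 on log axes and spread slightly to show overlapping points; circles are cells with an H2 UMI, crosses cells with Cd74 only, and dotted lines separate 3 UMIs or more. The upper right region holds 27 of 59 plasma-positive and 3 of 36 plasma-negative cells.

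Other gene groups were described by the same ratio. MHC class I genes stood at a ratio of 2.29 (2.20 to 2.38) in the plasma-positive and 1.23 (1.14 to 1.32) in the plasma-negative library. H2-D1, a class I heavy chain, stood at 1917 against 524 CPM and 807 against 447 CPM, and B2m, the shared light chain, at 3142 against 1542 CPM and 1606 against 1361 CPM, plasma-positive values first. Class I heavy chain genes are near-identical copies of each other, and how shared reads were treated is not given in the sources used here. Chemokine and cytokine genes stood at 4.20 (3.93 to 4.50) and 2.03 (1.73 to 2.38). In the plasma-positive library Ccl12 supplied 380 of their 886 UMIs and Ccl5 168, of which 75 lay in 1 cell. In the plasma-negative library 79 of the 160 UMIs lay in 1 cell, the one with all Mmp12 UMIs, among them 41 Ccl3 and 26 Ccl4 UMIs. Without the cells with the most Mmp12 UMIs the ratios were 1.13 (0.899 to 1.41) in the plasma-negative and 4.27 (3.98 to 4.57) in the plasma-positive library. Over 13 other settings, that one included, the plasma-negative ratio lay between 0.454 and 2.23 and was below 2 under 8 of them, and the plasma-positive ratio was below 2 under 0. Ribosomal protein genes were higher in both, 8 of 8, at 1.67 (1.62 to 1.71) and 1.25 (1.20 to 1.30), while of all 3468 genes 31.9% and 45.7% were higher. Cell cycle genes stood at 2.45 (2.13 to 2.82) and 1.10 (0.801 to 1.47), and Stmn1 had the most UMIs in the plasma-positive library (71 of 205 UMIs, 33 of them in 1 cell). With the 4 genes at 0.1% of UMIs as the rule the plasma-positive cell cycle ratio was 0.824 (0.611 to 1.09).

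The 9 genes at least 2-fold lower in both libraries were Thumpd3, Msl1, Mettl7a1, Mtss1, Caml, Smarcad1, Siglece, Prkca and Khdrbs3. In the Cd74-high cells of both libraries all 9 stood below the minimum CPM set for the comparison of all genes. They entered through the comparison cells alone, so they could only be counted as lower. They rested on 5 to 15 UMIs each in the Cd74-high cells of a library, and 3 of their intervals reached 0. Siglece, an inhibitory sialic acid receptor of myeloid cells, stood at 31.0 against 81.7 CPM (log2 ratio -1.40, -2.71 to -0.35) and at 37.7 against 78.4 CPM (-1.06, -1.93 to -0.31). Centring the ratios on the median gene of each library, a check added after the data had been seen, left 2 lower genes and 24 higher ones.

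Set directly against each other, the Cd74-high cells of both libraries had Cd74 levels with overlapping intervals, 1494 CPM (1372 to 1624) in the plasma-positive and 1331 CPM (1184 to 1489.9) in the plasma-negative library. The H2 genes, counted with the rule's own threshold, were 5.65-fold (H2-Ab1), 3.95-fold (H2-Aa) and 9.11-fold (H2-Eb1) higher in the plasma-positive cells, on 10, 6 and 3 plasma-negative UMIs. Without the plasma-positive cell with 98 UMIs of the 4 genes they were 3.97-fold (2.02 to 8.66), 2.34-fold (0.926 to 7.02) and 5.90-fold (1.83 to 30.3) higher. The interval of H2-Aa reached even. The 4 genes chose the cells, and these intervals take no account of the threshold on their sum. Their levels and folds are given as a description, and no difference between the sorts is drawn from them. Among 3779 genes at 50 CPM or more in either set, 157 (4.15%) were at least 2-fold higher and 416 (11.0%) at least 2-fold lower in the plasma-positive cells. These counts moved with the rule, to 68 higher and 67 lower at 3 or more UMIs of the 4 genes and to 528 and 1641 at 10 or more. The first rested on 88 plasma-negative and 154 plasma-positive cells, the second on 6 and 20. The rule and the number of cells cannot be told apart here. Apoe was 11.2-fold higher (log2 ratio 3.48, 3.27 to 3.70), beside a log2 ratio of 2.43 between the libraries' cells with 0 UMIs. Ifitm3 was 14.3-fold and Ifi27l2a 26.8-fold higher, with log2 ratios of 3.84 and 4.75 beside 1.79 and 1.97 in the cells with 0 UMIs. Ccl12 had a log2 ratio of 3.39 beside 1.03. P2ry12 and Cx3cr1 had log2 ratios of -0.90 (-1.08 to -0.71) and -0.82 (-0.93 to -0.71), beside -0.07 and -0.18 in the cells with 0 UMIs. Lpl, at 417 CPM in the plasma-negative and 377 CPM in the plasma-positive cells, and Cd86, at 208 and 213 CPM, had intervals that reached 0.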

How the data were processed

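The deposited values are raw UMI counts per gene and cell, in 1 matrix per library. Cell Ranger 6.1.2 wrote them per the file headers, while the submitters' processing notes name Cell Ranger 3.0.1. Genome build, annotation and cell calling are not given in the sources used here, and cell barcodes were not used here, so barcodes shared between libraries were not counted. Libraries were made with the Chromium 3' kit v3.1, per the labels' protocols. The plasma-negative matrix lists 34549522 UMIs in 9878 cells and the plasma-positive one 42006454 UMIs in 10390 cells, of which 18 and 28 failed the filters. The sort gates are not described in the labels.

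The cells and gene lists were chosen with earlier results of these data known. UMIs were summed over the Cd74-high cells and over the cells with 0 UMIs of the 4 genes and divided by all UMIs outside these genes (CPM), with no pseudocount. Genes entered at 50 CPM (lists at 10 CPM) in either set of each library and were listed at 2-fold. A gene at 0 was set to 3 counts where this gave a bound. Named genes were the 4 genes of the rule, the MHC class II and costimulation lists, Mrc1, Pf4 and Ms4a7, the 15 highest and 10 lowest by the ratio nearer to 0, and from each other list those with the most UMIs or the largest ratio; single genes beyond these were chosen after their values were seen. Intervals are exact Poisson, Clopper-Pearson or conditional binomial at 95%. No doublets were removed for the main values; Scrublet (scanpy 1.11.5) called 0 cells by its own threshold, so its highest scores were removed as an alternative. The comparison was tested on simulated cells drawn from the summed profile of the cells with 0 UMIs, with set changes in some genes. Simulated cells differed only in depth and counting error. The effect of single cells that hold most UMIs of a gene was thus not tested by it. Ifi30 and Clec7a were not analysed here. Python 3.11.15, numpy 2.4.6, scipy 1.17.1, pandas 2.3.3 and matplotlib 3.10.9 were used.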

Additional observations from a re-analysis of the deposited data

Results flagged for a closer look

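Some genes and gene lists stood on opposite sides of even in the 2 libraries, with both counting intervals away from even. With 1 library per sort the difference between the libraries was not tested. Ccl12, a monocyte-attracting chemokine, had a log2 ratio of Cd74-high cells to cells with 0 UMIs of -0.80 in the plasma-negative and 1.56 in the plasma-positive library. Jund, a transcription factor gene placed in the immediate early list, had log2 ratios of 0.57 and -0.51. The summed immediate early list had ratios of 1.18 and 0.761, and Jund held 79 of its 264 plasma-negative UMIs. The immediate early ratio of the plasma-negative library was 0.978 with the 4 genes at 0.1% of UMIs and 0.864 among cells of 3000 to 6000 UMIs, and that of the plasma-positive library 1.03 at 10 or more UMIs of the 4 genes, so these directions did not hold under every rule. C1qa, a chain of complement C1q, had log2 ratios of -0.13 and 0.11, and the summed complement list had ratios of 0.954 and 1.07. The plasma-negative complement ratio was 1.04 at 3 or more UMIs, 1.06 with the 4 genes at 0.1% of UMIs and 1.07 among cells of 3000 to 6000 UMIs, and the plasma-positive one 0.928 at 10 or more UMIs.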

How the results depend on the processing

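No paired analysis was possible because each sort is 1 library, and leaving out a replicate was not possible for the same reason. Of 131 summary values recomputed under other settings 96 stayed close to the main value (counts within 1.5 times) and 35 moved; of 1222 values of single genes and lists 32 turned direction. The cause was not tested except where the setting itself selects fewer cells or genes. A count within 1.5 times does not say which genes: the 19 genes higher at 10 UMIs shared 1 with the main 18, and the 20 higher with the H2 genes alone shared 3. Apoe stayed 2-fold higher in both libraries under every rule for the cells. Settings named last, from 5 Cd74 UMIs on, were chosen after seeing the data.

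At least 3 UMIs gave shares of 0.892% (plasma-negative) and 1.49% (plasma-positive), 1 gene lower in both libraries, 68 higher and 67 lower between the libraries' Cd74-high cells, and a plasma-negative complement ratio of 1.04. At least 10 UMIs gave 0.0609% and 0.193% (6 and 20 cells), 87 lower, 528 higher and 1641 lower between libraries. Ratios then were 0.928 (complement), 1.03 (immediate early) and 0.879 (MHC class II loading) in the plasma-positive library and 0.952 (disease-associated) in the plasma-negative one, where log2 ratios were -0.60 for Lpl, -2.18 for Cstb, -0.58 for Cxcl16 and 0.06 for Msl1. At least 3 UMIs of the H2 genes alone gave 0.0913% and 0.145%, 86 lower, 0 gene lists (main: 1) at 2-fold in both libraries, and 534 higher and 1092 lower between libraries. Plasma-negative log2 ratios then were -0.17 for Capg, -0.34 for Cox6a2, -0.08 for Atf3, -1.29 for Cxcl16, -0.66 for Gpr65, 0.57 for Khdrbs3, 0.10 for Smarcad1 and 0.03 for Mtss1, and Mettl7a1 had 0.04 in the plasma-positive library. With the 4 genes at 0.1% of a cell's UMIs, 16 genes were lower and 0 lists stood at 2-fold. Ratios then were 0.824 (cell cycle) and 0.784 (interferon gamma targets) in the plasma-positive and 1.06 (complement) and 0.978 (immediate early) in the plasma-negative library, where Ccl3 had -1.36 and Ccl4 -1.85. Among cells of 3000 to 6000 UMIs the plasma-positive share was 0.409%, 0% of its Cd74-high cells held a border gene, 53 genes were lower, 0 lists stood at 2-fold, and 466 and 676 genes were higher and lower between libraries. Plasma-negative ratios then were 1.07 (complement) and 0.864 (immediate early), Atf3 had -0.02 there, and Ccl3 had -0.52, Ccl4 -1.47 and Gpr65 -0.10 in the plasma-positive library.

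A minimum of 10 CPM gave 73 higher and 149 lower genes, and 200 CPM gave 4 and 0. The mean over cells gave 23 lower genes. All other cells as comparison, and at least 5 Cd74 UMIs, each gave 0 lists at 2-fold. Without the cells with the most Mmp12 UMIs 6 genes were higher and 4 lower, and Ccl3 had -1.54 in the plasma-negative library; each gene without its top cell gave 6 higher and the same -1.54. Centring gave 2 lower genes.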
